A study of Homo sapiens with 4 samples.

Results

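ABC transporters are membrane proteins that use ATP to move lipids, metals, peptides, conjugates and drugs across membranes, and their genes fall into subfamilies A to G. The 45 genes described here were those whose symbol is ABC, a subfamily letter from A to G and a number in the deposited normalized table, and they were read from the deposited count table of 63856 genes by their Ensembl identifiers. They comprised 12 ABCA, 9 ABCB, 11 ABCC, 4 ABCD, 1 ABCE, 3 ABCF and 5 ABCG genes, of which 7 are drug efflux genes (ABCB1, ABCC1 to ABCC5 and ABCG2).

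RNA-seq compared 2 libraries of wild type MCF10A, a non-tumorigenic human breast epithelial cell line, with 2 libraries of MCF10A carrying HSF1-pLVX, to ask how a stable excess of the heat shock transcription factor HSF1 changes expression. HSF1-pLVX cells received the HSF1 coding sequence in the lentiviral plasmid pLVX-Puro and were selected with puromycin, whereas wild type cells were unmodified. Both were grown in DMEM/F12 with horse serum, insulin, hydrocortisone, EGF and cholera toxin. Empty-vector cells were not analysed here, so the vector, the puromycin selection and HSF1 cannot be told apart, and whether the transduced cells were a pool or 1 clone is not given in the sources used here.

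In the ABCA subfamily the substrates are mostly lipids, in ABCB they range from drugs to mitochondrial and lysosomal cargo, and in ABCC they are largely organic anions and glutathione conjugates. ABCD proteins serve peroxisomes and lysosomes, ABCG proteins act as pairs of shorter molecules that export sterols or drugs, and ABCE1 and the ABCF proteins lack membrane segments and work with ribosomes. HSF1 binds repeats of the unit GAA and its reverse complement TTC, which alternate in heat shock elements.

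The libraries held 18688109 to 24184285 counts, and mitochondrial transcripts took 7.54 to 8.48% of them in wild type and 9.84 to 10.97% in HSF1-pLVX. Levels are given as CPM, counts scaled to a common library total after TMM adjustment for library composition. HSF1 itself stood at 200.4 and 189.2 CPM in the wild type libraries and 982.4 and 998.6 CPM in the HSF1-pLVX libraries (log2 fold change 2.35 ± 0.0999 SE, adjusted p = 1.14e-10, edgeR quasi-likelihood test with Benjamini-Hochberg adjustment over all 15830 genes tested), as the labels state. All 13 mammary epithelial markers examined passed the filter on low counts. Of them 4 rose and 8 fell, beside 32.7% and 33.2% of all genes tested. Their summed levels were 21797 to 22742 CPM in wild type and 13169 to 13958 CPM in HSF1-pLVX. Of the other markers, 2 of 8 fibroblast genes were tested, with summed levels of 7.78 to 10.9 CPM and 13.9 to 14.9 CPM, and DCN rose. None of 5 immune genes was tested, with the defining marker PTPRC at 0 counts in every library and summed levels of 0.0797 to 0.538 CPM. Of 4 endothelial genes KDR alone was tested and rose, the summed level being 1.94 to 3.04 CPM in wild type and 13.1 to 14.3 CPM in HSF1-pLVX, and none of 4 adipocyte genes was tested, with LEP at 0 and summed levels of 0.107 to 0.161 CPM and 0.398 to 0.554 CPM. The part of these markers in the results was not tested, and in bulk RNA fewer cells of a type and less RNA per cell cannot be told apart.

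Summed over the 45 genes, the level was 973.5 and 931.2 CPM in wild type and 917.5 and 914.9 CPM in HSF1-pLVX. Members of a chromosome 17 run of lipid transporter genes, ABCA6, ABCA9 and ABCA10, rose at least 2-fold, and ABCA3, ABCA12, ABCB5 and ABCG2 were among the members that fell at least 2-fold. Among smaller changes, ABCC4, ABCC2, ABCD4 and ABCE1 rose and ABCA7 and ABCB8 fell.

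Of the 45 genes, 29 passed the low-count filter and were tested, and 21 of them (72.4%) changed at an adjusted p of 0.05, beside 65.9% of all genes tested. Of the 29, 12 rose, or 41.4% against a background of 32.7%, and 9 fell, or 31.0% against 33.2%. Changes of at least 2-fold numbered 3 upward (10.3%, background 14.9%) and 5 downward (17.2%, background 14.0%). The 2 groups of libraries did not overlap for 27 of the 29 (93.1%), beside 83.1% of all genes, and the overlapping members were ABCA2 and ABCF2. Tested members had a median log2 fold change of 0.20 and all genes one of 0.02, and the median absolute values were 0.67 and 0.58. With 2 libraries a group an exact permutation test cannot go below p = 0.333, so calls rest on the spread that the fit shares across genes.

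**Figure D1:**
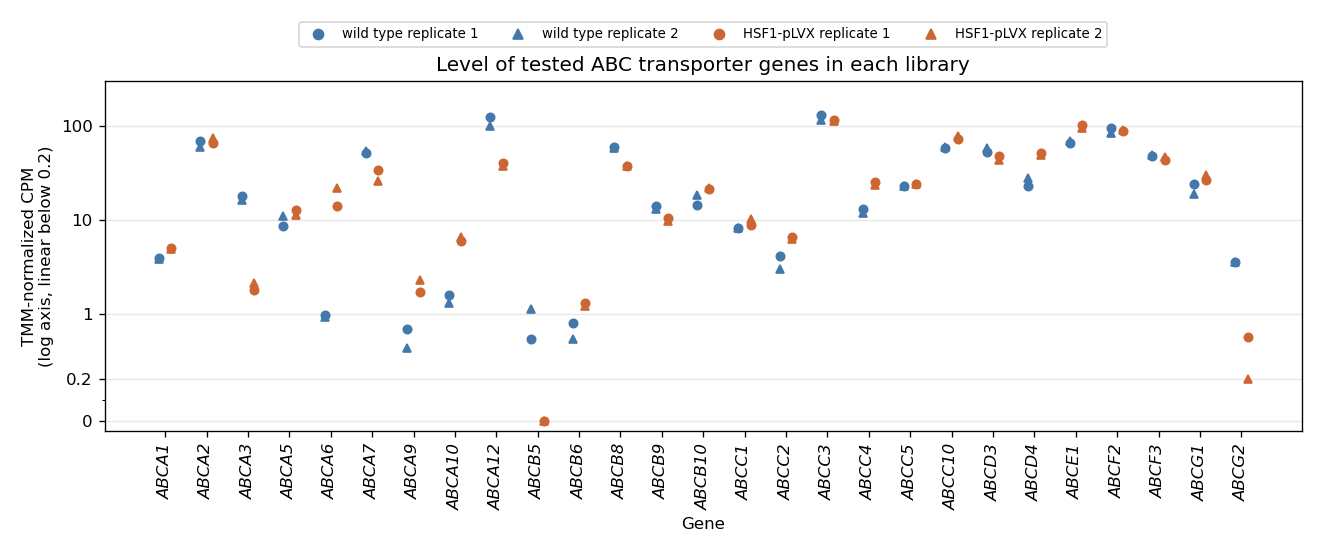
Level of the tested ABC transporter genes named in the text in each library, in TMM-normalized CPM on a log axis that is linear below 0.2, with wild type in blue, HSF1-pLVX in orange, circles for replicate 1 and triangles for replicate 2. ABCA6 lies near 1 CPM in wild type and at 14.1 and 22.0 CPM in HSF1-pLVX, and ABCB5 lies at 0 in both HSF1-pLVX libraries.

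**Figure D2:**
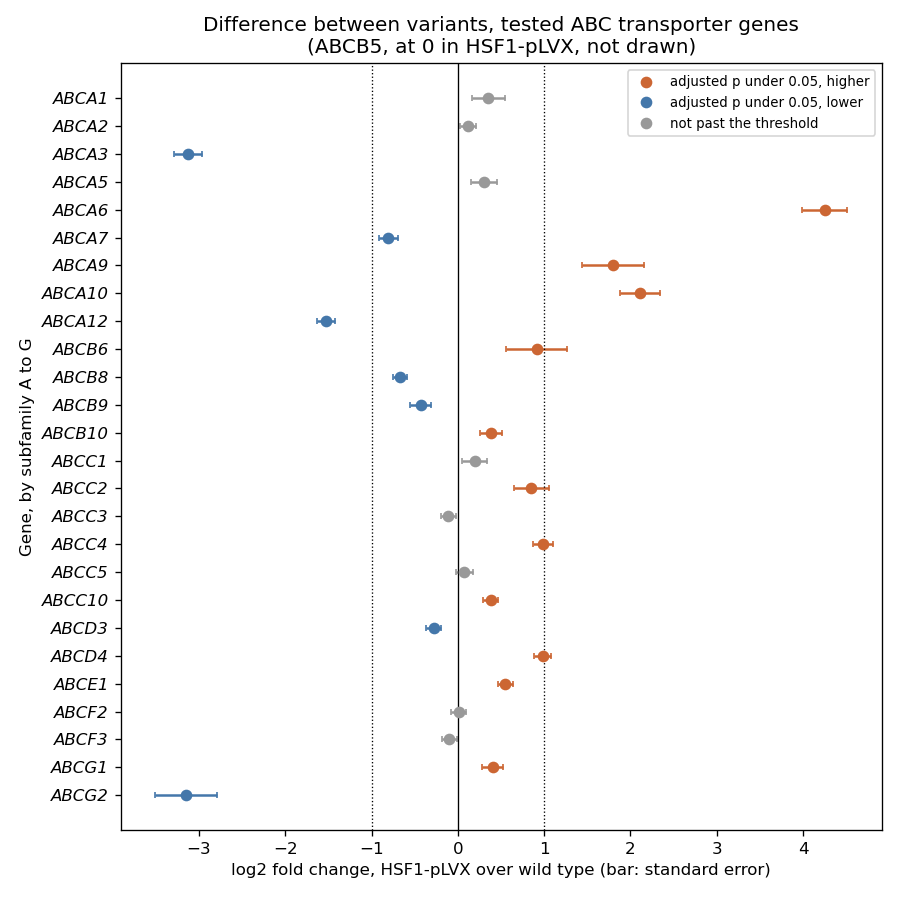
Fitted log2 fold change of HSF1-pLVX over wild type for the tested ABC transporter genes named in the text other than ABCB5, ordered by subfamily, with standard errors as bars. The values run from -3.15 for ABCG2 and -3.13 for ABCA3 to 4.25 for ABCA6.

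Of the 12 ABCA genes 9 were tested, of which 3 rose, 3 fell and 3 did not pass the test. Of all genes tested, 32.7% rose and 33.2% fell. The fitted log2 fold changes of the 9 ran from -3.13 to 4.25. The summed level of the subfamily was 278.3 and 249.6 CPM in wild type and 182.3 and 188.1 CPM in HSF1-pLVX.

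ABCA6, ABCA9 and ABCA10 encode related proteins linked to lipid handling whose substrates are little known, and they sit side by side on the minus strand of chromosome 17 between ABCA8 and ABCA5. The 5 genes span 460 kb (hg38, 68867292 to 69327244). ABCA6 (69078702 to 69141888) was at 0.959 and 0.915 CPM in wild type and at 14.1 and 22.0 CPM in HSF1-pLVX. Every HSF1-pLVX value was above every wild type value, by a fitted 19.0-fold (log2 fold change 4.25 ± 0.264 SE, adjusted p = 4.69e-09, edgeR). ABCA10 (69147214 to 69244846) was at 1.598 and 1.29 CPM in wild type and 5.90 and 6.64 CPM in HSF1-pLVX, again without overlap (log2 fold change 2.11 ± 0.231 SE, adjusted p = 1.71e-06, edgeR).

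ABCA9 (68974488 to 69061064), the lowest of the trio in HSF1-pLVX, rested on 13 and 8 counts in wild type and 43 and 45 counts in HSF1-pLVX. Its levels were 0.693 and 0.431 CPM against 1.71 and 2.27 CPM, which did not overlap (log2 fold change 1.80 ± 0.356 SE, adjusted p = 0.000469, edgeR). ABCA8 had 1 count in 1 wild type library and none elsewhere and was not tested. ABCA5 was at 8.58 and 11.03 CPM in wild type and 12.9 and 11.2 CPM in HSF1-pLVX, and its difference did not pass the test (log2 fold change 0.30 ± 0.148 SE, adjusted p = 0.0883, edgeR), although it did without wild type replicate 2 (0.48, adjusted p = 0.0106, edgeR). Differences in response between the genes of the run were not tested.

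ABCA10 and ABCA5 share 318 exon bases on the same strand, which is a small part of the 8405 exon bases of ABCA10, and reads there cannot be divided between them by position. Within 500 kb on each side of the run the table holds 23 other genes, of which 4 were tested. Of the 4, 1 rose and 3 fell, beside 32.7% and 33.2% of all genes tested. MAP2K6, a kinase of the p38 pathway, rose (log2 fold change 3.19 ± 0.604 SE), while WIPI1 (-2.57), ARSG (-1.51) and PRKAR1A (-0.45) fell. The MAP2K6 value rests on 1 and 2 counts in wild type and 17 and 18 in HSF1-pLVX, so its size is uncertain.

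**Figure D3:**
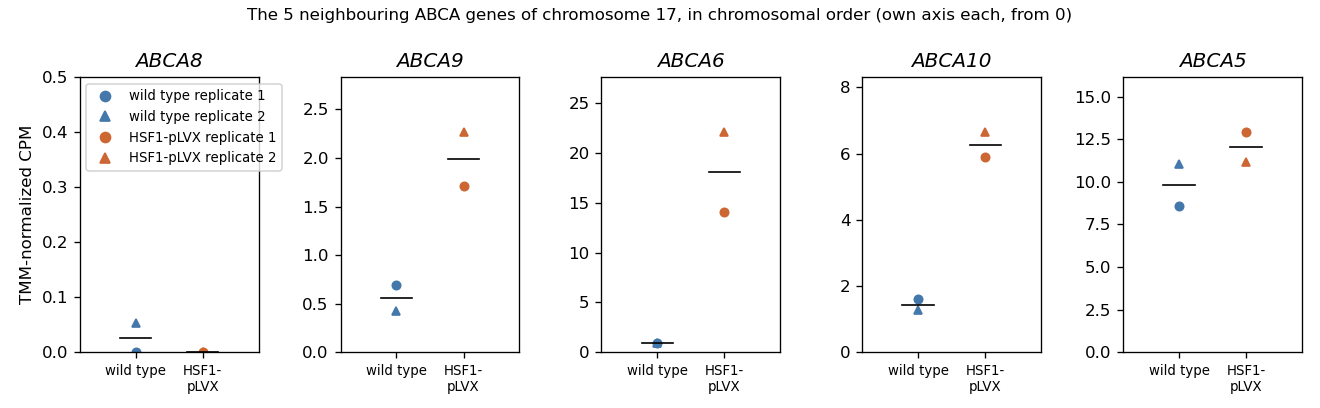
TMM-normalized CPM of ABCA8, ABCA9, ABCA6, ABCA10 and ABCA5 in chromosomal order, each on its own axis from 0, with wild type in blue, HSF1-pLVX in orange, circles for replicate 1, triangles for replicate 2 and a line at each group mean. ABCA9, ABCA6 and ABCA10 are higher in both HSF1-pLVX libraries, while ABCA8 is at or near 0 throughout.

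The promoters of the trio are shown because the genes are neighbours that rose together, and those of ABCA3 and ABCG2 because these had the largest fitted falls among members detected in every library. Each is the 250 bases before a RefSeq start (GRCh38.p14, minus strand, written 5′ to 3′), with a match to TTCNNGAA or GAANNTTC in capitals. The start nearest the 5′ end of the gene as counted was taken. For ABCG2 it lay 304 bases from that end, and for ABCA9 137 bases from it and inside the gene as counted. Windows at any other starts of a gene were not examined, so a window need not be the main promoter. The windows are chr17:69141896-69142145 for ABCA6, chr17:69060928-69061177 for ABCA9, chr17:69244849-69245098 for ABCA10, chr16:2340729-2340978 for ABCA3 and chr4:88231627-88231876 for ABCG2.
ABCA6: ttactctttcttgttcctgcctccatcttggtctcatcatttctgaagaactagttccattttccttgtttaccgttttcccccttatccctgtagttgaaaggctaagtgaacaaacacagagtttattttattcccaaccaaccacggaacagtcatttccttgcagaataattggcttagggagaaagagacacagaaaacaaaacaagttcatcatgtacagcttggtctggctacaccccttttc
ABCA9: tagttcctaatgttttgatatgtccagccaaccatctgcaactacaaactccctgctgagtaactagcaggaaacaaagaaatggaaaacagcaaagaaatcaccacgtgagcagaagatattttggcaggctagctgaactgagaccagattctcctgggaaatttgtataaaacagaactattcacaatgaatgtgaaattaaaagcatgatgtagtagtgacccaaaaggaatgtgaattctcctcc
ABCA10: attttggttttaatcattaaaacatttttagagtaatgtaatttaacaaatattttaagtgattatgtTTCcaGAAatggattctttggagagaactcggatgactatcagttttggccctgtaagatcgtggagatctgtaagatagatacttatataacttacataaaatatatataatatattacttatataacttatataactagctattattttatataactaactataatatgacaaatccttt
ABCA3: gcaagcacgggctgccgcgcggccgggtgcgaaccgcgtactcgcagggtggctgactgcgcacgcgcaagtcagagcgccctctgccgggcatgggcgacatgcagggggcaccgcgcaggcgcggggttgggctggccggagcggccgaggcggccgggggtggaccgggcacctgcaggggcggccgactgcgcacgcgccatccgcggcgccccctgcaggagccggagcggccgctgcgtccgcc
ABCG2: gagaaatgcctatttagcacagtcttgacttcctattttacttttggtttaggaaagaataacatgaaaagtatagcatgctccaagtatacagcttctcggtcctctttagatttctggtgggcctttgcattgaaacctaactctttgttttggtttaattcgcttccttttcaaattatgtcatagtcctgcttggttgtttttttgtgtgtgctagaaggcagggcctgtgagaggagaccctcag

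Each of these forms equals its own reverse complement, so 1 search covers both strands. ABCA10 held TTCNNGAA 182 bases before its start, and the other printed windows held neither form. The ABCA10 window lies inside ABCA5, which is on the same strand (69244311 to 69327244). Over the 35 members with a promoter in the table, TTCNNGAA was present in 3 (ABCA10, ABCB11 and ABCC10) and GAANNTTC in 1 (ABCC6), together 11.4%, beside 11.6% of all 35116 promoters. Singly the forms occurred in 6.62% and 5.78% of all promoters. The longer form, GAANNTTC followed by NN and GAA, was searched together with its reverse complement and occurred in 0.441% of all promoters and in 0 members. The GC content of the ABCA10 window was 23.6% and that of the ABCA3 window 79.2%.

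ABCA3, which loads phospholipid into the lamellar bodies of lung surfactant cells, moved the other way. The gene (chromosome 16, 2275881 to 2340746) was at 17.8 and 16.2 CPM in wild type and 1.79 and 2.11 CPM in HSF1-pLVX. The groups were far apart, and expression was a fitted 8.74-fold lower in HSF1-pLVX (log2 fold change -3.13 ± 0.166 SE, adjusted p = 9.42e-10, edgeR). ABCA12 (chromosome 2, 214931542 to 215138428), which carries glucosylceramide into the lamellar granules of keratinocytes, was at 123.6 and 100.9 CPM in wild type and 40.4 and 37.5 CPM in HSF1-pLVX. It fell 2.88-fold with no overlap (log2 fold change -1.53 ± 0.103 SE, adjusted p = 1.14e-08, edgeR). Per kilobase of exon (CPM per kilobase), ABCA12 ranked 3 among the members other than ABCF1 in wild type at 11.9 ± 1.71 (SD, n = 2) and 12 in HSF1-pLVX at 4.14 ± 0.220.

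ABCA7, a lipid transporter also involved in phagocytosis, fell by less (51.2 and 54.0 CPM in wild type, 33.9 and 26.2 CPM in HSF1-pLVX, log2 fold change -0.80 ± 0.111 SE). ABCA1, which hands cholesterol and phospholipid to apolipoproteins, was at 3.89 and 3.82 CPM and at 4.98 and 4.88 CPM, a difference that did not pass the test (adjusted p = 0.119, edgeR). ABCA2, an endolysosomal member, overlapped between groups (log2 fold change 0.12 ± 0.0954 SE). ABCA4, the retinal transporter, had 1 to 5 counts a library and ABCA13 had 2 to 5, and neither was tested.

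Genes that act beside these lipid transporters were examined as lists. Among 15 tested genes of sterol and lipid efflux control, 5 rose and 6 fell, beside 32.7% and 33.2% of all genes, with a median log2 fold change of -0.02 that turned to 0.04 when only library size was scaled. The liver X receptor gene NR1H3 (1.69), its partner RXRA (1.57) and the HDL receptor gene SCARB1 (1.078) rose, and APOE (-1.95) fell. Of 10 tested genes of epidermal barrier lipids, the process ABCA12 belongs to, 1 rose and 6 fell, beside the same 32.7% and 33.2% of all genes, with a median of -0.85. The median was -0.36 over all 16 listed genes with no filter, and 2 rose without wild type replicate 1 or without HSF1-pLVX replicate 1. The ceramide and fatty acid enzymes SMPD1 (-1.998), ELOVL4 (-1.70) and UGCG (-1.49) fell and the protease gene CASP14 (2.47) rose.

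All 6 tested ABCB genes changed, 3 upward and 3 downward, beside 65.9% of all genes, and the calls of ABCB6 and ABCB10 were lost with DESeq2. ABCB5 (chromosome 7, 20615207 to 20777038), known as a marker of stem cells in the limbus of the eye and of some melanoma cells, had 10 and 21 counts in wild type and 0 and 0 in HSF1-pLVX. Taking 3 counts a library as the limit that a 0 allows, it was at least 6.15-fold lower in HSF1-pLVX (adjusted p = 7.31e-05, edgeR). This bound was 8.36 without wild type replicate 1 and 3.94 without wild type replicate 2, where the gene no longer reached the filter.

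Mitochondrial members moved in both directions. ABCB10, which supports haem synthesis, was at 14.4 and 18.6 CPM against 21.1 and 22.0 CPM (0.38 ± 0.124 SE, adjusted p = 0.0144, edgeR). This call was lost with DESeq2 (adjusted p = 0.0616), without wild type replicate 1 and without HSF1-pLVX replicate 2. ABCB8, a mitochondrial inner membrane protein, fell from 60.5 and 58.9 CPM to 37.2 and 37.8 CPM (-0.67 ± 0.0839 SE, adjusted p = 6.51e-06, edgeR).

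ABCB6, a porphyrin transporter, was low, at 0.799 and 0.538 CPM in wild type and 1.31 and 1.21 CPM in HSF1-pLVX (log2 fold change 0.91 ± 0.352 SE, adjusted p = 0.0336, edgeR). It shares 2837 of its 5205 exon bases with ATG9A on the same strand, and its call was lost with DESeq2 (adjusted p = 0.227) and on leaving out any 1 of the libraries other than wild type replicate 1. ABCB9, a lysosomal peptide transporter, fell (14.0 and 13.2 CPM against 10.4 and 9.71 CPM, log2 fold change -0.43 ± 0.125 SE), a call lost without HSF1-pLVX replicate 2 (adjusted p = 0.0803, edgeR). Of its 13291 exon bases, 1656 are shared with OGFOD2 and 1590 with ARL6IP4 on the opposite strand. ABCB4, which moves phosphatidylcholine into bile, had 0 to 4 counts, and the bile salt exporter gene ABCB11 had 0.

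In the list of mitochondrial iron-sulphur cluster and haem synthesis, in which ABCB10 works, 12 of 22 tested genes rose and 4 fell, beside 32.7% and 33.2% of all genes, with a median log2 fold change of 0.31. The number that fell was 2 with library size alone or without HSF1-pLVX replicate 1, and 1 without HSF1-pLVX replicate 2. The iron importer genes SLC25A37 (2.09) and SLC25A28 (1.03), the chaperone gene HSPA9 (1.06) and the haem enzyme gene CPOX (0.89) rose.

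The ABCC genes outside drug efflux were few. ABCC10, also called MRP7, was at 57.8 and 59.3 CPM in wild type and 73.5 and 79.0 CPM in HSF1-pLVX (log2 fold change 0.38 ± 0.0835 SE, adjusted p = 0.00106, edgeR). It shares 79 exon bases with DLK2 on the opposite strand, whose counts were 50 and 40 in wild type and 1371 and 1213 in HSF1-pLVX, and the part of that overlap was not tested. ABCC11, the transporter behind the earwax types, had 5 and 4 counts in wild type and 15 and 10 in HSF1-pLVX and failed the filter. It shares 293 exon bases with LONP2 on the opposite strand. LONP2 had 2058 and 1899 counts in wild type and 3255 and 2652 in HSF1-pLVX, and the part of this overlap was not tested. ABCC6, mutated in pseudoxanthoma elasticum, had 1 to 4 counts, the sulphonylurea receptor genes ABCC8 and ABCC9 at most 3, and ABCC12 had 0, while neither potassium channel partner of the receptors was tested.

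Of the drug efflux genes, ABCC4 and ABCC2 rose, ABCG2 fell, and ABCC1, ABCC3 and ABCC5 did not pass the test. ABCB1, which encodes P-glycoprotein, had 0 counts in all 4 libraries, a level that 3 counts a library would put at up to 0.161 CPM in wild type and 0.135 CPM in HSF1-pLVX. Summed over the 7 genes the level was 183.2 and 166.7 CPM in wild type and 182.9 and 177.0 CPM in HSF1-pLVX. Most of this was ABCC3.

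ABCG2 (chromosome 4, 88090264 to 88231322), the breast cancer resistance protein gene, had 67 and 66 counts in wild type and 14 and 4 in HSF1-pLVX. These were 3.57 and 3.55 CPM against 0.558 and 0.201 CPM, with the wild type libraries nearly equal and both HSF1-pLVX libraries far below them. The fitted difference was 8.85-fold (log2 fold change -3.15 ± 0.361 SE, adjusted p = 2.76e-06, edgeR). Leaving out a library gave log2 fold changes from -4.10 to -2.65, all past the test.

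ABCC4 (chromosome 13, 95019829 to 95301446), which exports cyclic nucleotides, prostaglandins and nucleotide drugs, was at 12.9 and 11.7 CPM in wild type and 25.6 and 23.3 CPM in HSF1-pLVX. Both HSF1-pLVX values were above both wild type values (log2 fold change 0.99 ± 0.113 SE, adjusted p = 2.77e-06, edgeR). ABCC2 (chromosome 10, 99782732 to 99852192), which exports conjugates at the apical membrane, was at 4.10 and 2.96 CPM in wild type and 6.53 and 6.19 CPM in HSF1-pLVX (0.85 ± 0.204 SE, adjusted p = 0.00208, edgeR). Without HSF1-pLVX replicate 2 its adjusted p was 0.0550 (edgeR).

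ABCC1 (chromosome 16, 15949577 to 16143074), which exports glutathione conjugates, was at 8.20 and 8.29 CPM in wild type and 8.80 and 10.2 CPM in HSF1-pLVX (log2 fold change 0.20 ± 0.144 SE, adjusted p = 0.242, edgeR). The table holds a second ABCC1 row, on an alternate contig of the build, with 64 and 62 counts in wild type and 118 and 157 in HSF1-pLVX, or 28.7 to 43.7% of the summed counts. That row rose (0.89 ± 0.245 SE, adjusted p = 0.00544, edgeR). With both rows summed the levels were 11.6 and 11.6 CPM against 13.5 and 18.1 CPM, and the sum passed the test (0.43 ± 0.143 SE, adjusted p = 0.0156, edgeR). It did not without HSF1-pLVX replicate 2 (0.23, adjusted p = 0.184, edgeR) or with DESeq2 (adjusted p = 0.0636).

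ABCC3 (chromosome 17, 50634777 to 50692252), a basolateral exporter of conjugates, was at 131.3 and 117.3 CPM in wild type and 117.0 and 113.0 CPM in HSF1-pLVX. ABCC5 (chromosome 3, 183919934 to 184018015), an exporter of cyclic nucleotides, was at 23.1 and 22.9 CPM and at 24.4 and 24.1 CPM. Neither passed the test (log2 fold change -0.11 ± 0.0891 SE and 0.08 ± 0.0968 SE, adjusted p = 0.286 and 0.505, edgeR), which does not show that they were equal. Per kilobase of exon ABCC3 was the highest drug efflux gene in both groups, at 12.9 ± 1.03 in wild type and 12.0 ± 0.296 in HSF1-pLVX (SD, n = 2).

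**Figure D4:**
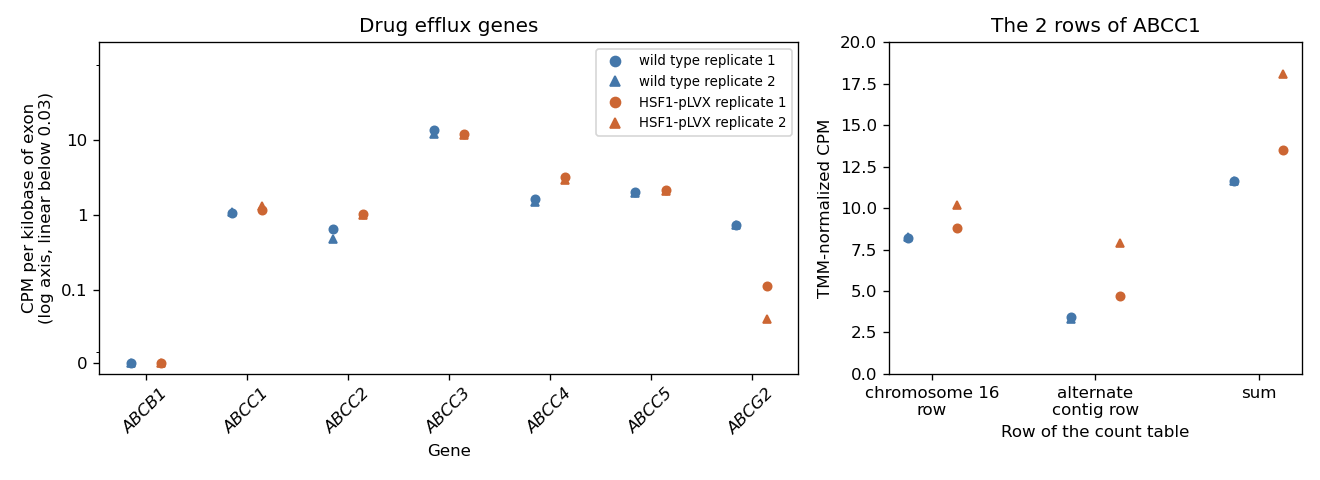
Left, CPM per kilobase of exon of the 7 drug efflux genes on a log axis that is linear below 0.03, and right, TMM-normalized CPM of the 2 rows of ABCC1 and their sum on a linear axis, with wild type in blue, HSF1-pLVX in orange, circles for replicate 1 and triangles for replicate 2. ABCG2 is lower and ABCC4 higher in both HSF1-pLVX libraries, ABCB1 is at 0, and the ABCC1 sum is spread from 13.5 to 18.1 CPM in HSF1-pLVX.

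ABCD4, which serves lysosomal release of cobalamin, was at 23.1 and 28.04 CPM in wild type and 51.5 and 49.3 CPM in HSF1-pLVX (0.98 ± 0.102 SE, adjusted p = 1.07e-06, edgeR). The groups did not overlap, and 624 of its 8769 exon bases are shared with an unnamed gene of 14 to 41 counts on the same strand.

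ABCD3, a peroxisomal carrier of branched fatty acids and bile acid intermediates, was at 52.9 and 58.1 CPM against 47.4 and 43.8 CPM (log2 fold change -0.28 ± 0.0891 SE, adjusted p = 0.0124, edgeR). That call was lost when only library size was scaled (adjusted p = 0.0701, edgeR) and without wild type replicate 2 or HSF1-pLVX replicate 2. ABCD2 had at most 1 count a library. Of 20 peroxisome biogenesis and beta-oxidation genes, 4 rose and 8 fell, beside 32.7% and 33.2% of all genes, with a median of -0.19. The number that fell ranged from 6 to 10 over the alternatives that kept all libraries. The import receptor gene PEX7 (-1.077) and the thiolase gene ACAA1 (-0.80) fell, and PEX5 (0.93) rose.

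ABCE1, the factor that splits ribosomes after termination, rose from 66.2 and 69.3 CPM to 103.1 and 95.2 CPM (log2 fold change 0.55 ± 0.0853 SE, adjusted p = 5.37e-05, edgeR). It shares 469 exon bases with ANAPC10 and 276 with OTUD4 on the opposite strand. Among the members other than ABCF1, whose level could not be read, ABCF2 had the highest level per kilobase in both groups. It was at 20.2 ± 1.54 in wild type and 20.3 ± 0.485 in HSF1-pLVX (SD, n = 2), and overlapped between them (log2 fold change 0.01 ± 0.0871 SE). ABCF3, at 9.32 and 8.70 per kilobase, did not pass the test either. Of 13 ribosome recycling and translation surveillance genes 3 rose and 4 fell, beside 32.7% and 33.2% of all genes. With library size alone the counts were 4 and 2, with DESeq2 and on leaving out any 1 library other than wild type replicate 2 they were 3 and 2, and the named members were EIF2S3 (1.34), EIF2D (0.93), EIF2S2 (0.56) and PELO (-0.55).

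ABCF1, an initiation factor partner, was listed at 0 counts in every library, and no level can be read from this 0. The deposited normalized table gave the symbol 7 rows, and over 139 symbols with at least 7 rows the first row was at the floor of the values in 117 (84.2%), against 15.5% of 19066 symbols with 1 row. TAP1 and TAP2, ABC genes of antigen processing that lie outside the symbol rule, were at 0 as well.

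ABCG1, which passes cholesterol to HDL, was at 24.2 and 18.8 CPM in wild type and 26.8 and 30.4 CPM in HSF1-pLVX (log2 fold change 0.41 ± 0.121 SE, adjusted p = 0.00882, edgeR). The call was lost without wild type replicate 2 (adjusted p = 0.130, edgeR) and without HSF1-pLVX replicate 2 (adjusted p = 0.219, edgeR). ABCG4 had 1 to 5 counts, and the sterol exporter genes ABCG5 and ABCG8 had at most 1. The only other ABCG member, ABCG2, fell as described with the drug efflux genes.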

How the data were processed

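Total RNA from the 4 MCF10A libraries was depleted of ribosomal RNA and sequenced as read pairs. The authors aligned reads to hg38 with HISAT2 2.0.5, used SAMtools 1.13, counted reads per Ensembl gene with featureCounts 1.6.5 and normalized with DESeq2 1.32.0. Strand and multi-mapping settings are not given in the sources used here. The deposited counts are whole numbers per gene and library. The deposited normalized values are on a log2 scale (variance-stabilized, as a recomputation from the counts matched them), and were used for symbols and as an alternative. Of the ABC symbols there, 4 have more than 1 row, and the second ABCC1 row was tied to its gene identifier because its values, recomputed from the counts, matched 1 gene only.

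Counts were analysed in R 4.3.3 with edgeR 4.0.16 (TMM scaling, filterByExpr, glmQLFit and glmQLFTest, no block), with Benjamini-Hochberg adjustment over all genes tested and an adjusted p of 0.05. Levels are TMM-normalized CPM, and per-kilobase levels divide by exon length. Scripts were tested on simulated data, where 80% of log2 changes of 1 and 95.1% of those of 2 were recovered. There 7.07% of the calls at an adjusted p of 0.05 were false. The simulation changed few genes and gave genes of like level the same spread, unlike these data, so its rates need not hold here. Replicates are those of the labels, and the paper calls them biological replicates. Neither says whether they were separate cultures, so p-values measure the spread between these libraries only, and count limits cover counting error only. Named genes were members called with a change of at least 2-fold, the drug efflux genes and untested members above 3 counts. From the companion lists at most 4 called genes with the largest changes were named. The remaining members were added after their values were seen, to account for the family. Some genes are included in counts and sums but are not reported singly here. The members and lists were chosen with earlier results of these data known. Same-numbered libraries did not deviate together (correlation 0.000143), so the numbers were not taken to pair them. Alternatives were a replicate block, other scalings and filters, DESeq2 1.42.0, leaving out each library, and summing pseudogene copies or haplotype copies. The haplotype sums, and the counts of members under both sums, were chosen after seeing the data. Promoters came from RefSeq (GRCh38.p14). No promoter was matched for 10 members, among them ABCA4, ABCA8, ABCB4, ABCB5, ABCC1, ABCC3, ABCC8 and ABCG1.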

Additional observations from a re-analysis of the deposited data

How the results depend on the processing

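The counts of members that rose (12) and fell (9), and of those that rose (3) or fell (5) at least 2-fold, stayed within 1.5 times their size under every alternative that kept all libraries, except that 5 rose at least 2-fold when only library size was scaled. That scaling moved the median log2 fold change of all genes from 0.02 to 0.08 and that of the tested members from 0.20 to 0.26. Under the replicate block, which leaves 1 residual degree of freedom, the counts were 12, 9, 3 and 5 and the median was 0.20. No such count changed, but that fit took the spread wholly from the trend across genes. It therefore cannot show whether pairing by replicate number matters. The same-numbered libraries deviated with a correlation of 0.000143. DESeq2 gave 10 higher and 9 lower, and summing haplotype copies, chosen after seeing the data, gave 13 higher and a median of 0.30. Leaving out each library gave 8 to 11 higher, 7 to 9 lower, 3 to 6 at least 2-fold higher, 4 to 6 at least 2-fold lower and a median of 0.21 to 0.22. The count of at least 2-fold higher was 6 without wild type replicate 1 and 5 without HSF1-pLVX replicate 2, and the cause was not tested. A library left alone in its group was assumed to vary like the other group. Requiring 10 counts in every library of 1 group brought in ABCC11 (log2 fold change 1.17, adjusted p = 0.0398, edgeR), which did not pass with no filter (adjusted p = 0.0936). The deposited normalized values gave smaller differences for low genes, for example 3.43 for ABCA6 and -2.10 for ABCG2. The largest count among the 16 untested members was 15.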

Other observations

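A list of 21 carriers of drugs and organic ions outside the ABC family, mostly uptake carriers but with the extrusion genes SLC47A1 and SLC47A2 among them, had 12 tested genes. Of these 5 rose and 5 fell, beside 32.7% and 33.2% of all genes, with a median log2 fold change of -0.05 that turned to 0.01 when only library size was scaled. The number that rose was 2 with DESeq2 and 3 without wild type replicate 1, HSF1-pLVX replicate 1 or HSF1-pLVX replicate 2. The prostaglandin carrier gene SLCO2A1 fell from 9.003 and 10.98 CPM in wild type to 1.79 and 2.06 CPM in HSF1-pLVX (log2 fold change -2.38 ± 0.1998 SE, adjusted p = 1.10e-07, edgeR). The extrusion genes SLC47A2 (2.31) and SLC47A1 (1.31) rose from low levels, SLC47A2 from 11 and 7 counts to 59 and 49.

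Of 10 genes for receptors and factors known to control drug transporters 8 were tested. Among the 8, 2 rose and 3 fell, beside 32.7% and 33.2% of all genes. The nuclear receptor genes PPARG (-0.88) and PPARA (-0.73) and the hypoxia factor gene HIF1A (-0.81) fell, and the cold shock protein gene YBX1 (0.66) rose. The median of the list was 0.00 on the log2 scale and turned to 0.06 with library size alone.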
